A study of Mus musculus with 2 samples.

Results

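The genes described here make and break down the cyclic nucleotides: 10 adenylyl cyclase genes (Adcy1 to Adcy10) and 21 catalytic phosphodiesterase genes (Pde1a to Pde11a), 31 in all of the 21938 protein-coding genes annotated on assembled mouse chromosomes. They were chosen by gene family, and every EGR1 peak was assigned to a member if its centre lay within the gene body or within 10 kb of one of its transcription start sites (TSSs). By this rule 44 of the 12014 peaks of the deposited list (0.366%) belonged to the members. EGR1, a zinc-finger transcription factor that neuronal activity induces, was immunoprecipitated from frontal cortices of male C57BL6N/129SvEv mice aged 6 weeks, and the bound DNA was sequenced (ChIP-seq). Tissue of 4 to 5 mice was pooled for an experiment, the experiment was performed 2 times, and an input DNA sample was sequenced beside them. No genotype or treatment was compared, and the cortex holds neurons and glia together, so a peak could not be given to a cell type. The list holds the position of each peak and its irreproducible discovery rate (IDR), which is small where a peak ranks high in both experiments, and it keeps peaks with an IDR of 2% or less. As the experiments were merged into 1 list without read counts, neither the spread between them nor the depth behind a peak could be computed, and no test was run. A gene without a peak is therefore a gene without a peak in this list, not a gene that EGR1 does not bind.

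Adenylyl cyclases convert ATP to cyclic AMP (cAMP) when G protein-coupled receptors, or for some of them calcium and calmodulin, signal to them. Phosphodiesterases hydrolyse cAMP, cyclic GMP (cGMP) or both, and so end the signal and keep it local. In cortical neurons cAMP activates protein kinase A, which phosphorylates CREB, and the pathway is known for its part in synaptic plasticity and in the induction of immediate early genes, of which Egr1 is an example.

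The motif searched here for EGR1 was GCGTGGGCG or GCGGGGGCG, read on both strands. Of the 44 peaks of the members, 6 held it, and these are shown because they contain letters that EGR1 is known to bind. The matches lay 3 bp (Pde4b) to 106 bp (Adcy9) from the peak centre. Whether EGR1 was bound at the match was not tested. Sequences are given on the plus strand of GRCm38 (mm10), with the motif in capitals. Where a peak overlapped an untranslated region, only a window of 30 bases around the motif is shown.
Adcy8, TSS peak, chr15:64922332-64922361: gacttaaaccCGCCCCCGCgccaaaccacg
Pde4b, TSS peak, chr4:102087542-102087571: gggaacgagcGCGGGGGCGggagcggcgtg
Adcy5, TSS peak, chr16:35155287-35155316: agccggtcctCGCCCCCGCcccctgcgcgg
Adcy9, TSS peak, chr16:4420288-4420317: ccgcacgccgCGCCCACGCcccaggggccc
Adcy8, exon peak, chr15:64920596-64920859: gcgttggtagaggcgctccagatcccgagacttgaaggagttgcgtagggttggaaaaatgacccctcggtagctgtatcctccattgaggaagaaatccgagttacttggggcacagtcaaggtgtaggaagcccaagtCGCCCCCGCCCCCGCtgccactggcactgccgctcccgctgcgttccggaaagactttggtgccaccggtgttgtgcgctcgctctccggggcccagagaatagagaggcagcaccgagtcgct
Pde4d, intron peak, chr13:109047252-109047501: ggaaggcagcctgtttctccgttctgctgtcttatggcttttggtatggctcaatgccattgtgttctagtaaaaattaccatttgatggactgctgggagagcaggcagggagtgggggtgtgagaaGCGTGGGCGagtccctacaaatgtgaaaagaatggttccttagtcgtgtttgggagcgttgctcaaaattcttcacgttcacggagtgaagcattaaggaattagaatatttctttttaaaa
The Adcy8 exon peak held 2 matches that overlap, read on the minus strand, in coding sequence of exon 1. The Pde4d peak lay in an intron, far from any annotated TSS, and Adcy9 was the other gene whose match had the form GCGTGGGCG.

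The peaks with the lowest IDR among those without an exact match lay at Pde10a, upstream of Pde4a and behind the end of Pde4c, and are shown for comparison. Here the capitals mark stretches that differ from a form of the motif at 1 base.
Pde10a, TSS peak, chr17:8524907-8525118: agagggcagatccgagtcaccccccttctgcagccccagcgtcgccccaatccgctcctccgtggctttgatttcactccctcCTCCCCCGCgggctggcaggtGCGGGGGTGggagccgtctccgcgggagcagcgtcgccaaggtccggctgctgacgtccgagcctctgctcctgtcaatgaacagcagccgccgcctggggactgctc
Pde4a, upstream peak, chr9:21161256-21161465: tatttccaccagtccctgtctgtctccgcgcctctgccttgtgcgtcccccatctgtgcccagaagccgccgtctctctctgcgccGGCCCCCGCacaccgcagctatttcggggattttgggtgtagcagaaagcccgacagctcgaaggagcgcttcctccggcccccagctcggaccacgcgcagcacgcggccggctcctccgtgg
Pde4c, downstream peak, chr8:70753212-70753461: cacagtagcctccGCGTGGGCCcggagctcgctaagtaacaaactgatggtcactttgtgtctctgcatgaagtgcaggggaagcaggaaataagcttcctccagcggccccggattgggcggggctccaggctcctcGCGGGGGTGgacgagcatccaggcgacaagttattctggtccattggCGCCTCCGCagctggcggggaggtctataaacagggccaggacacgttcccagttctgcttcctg
The Pde10a peak held 2 such stretches, the Pde4a peak 1 and the Pde4c peak 3. The Pde4c peak was nearer to a TSS of Rab3a, a gene of synaptic vesicle release, than to any TSS of Pde4c.

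At least 1 peak was assigned to 23 of the 31 members (74.2%), whereas 39.6% of all protein-coding genes had a peak by the same rule. Within 2 kb of a TSS, 16 members (51.6%) had a peak, compared with 29.6% of all protein-coding genes. A gene with more TSSs has more places where a peak can be counted. Per cluster of TSSs up to 500 bp apart, the shares with a peak within 1 kb were close. They were 14.4% of the members' 139 clusters and 13.9% of the 52546 clusters over all protein-coding genes. The members are long genes, with a median length of 121 kb against 17.4 kb for all protein-coding genes, and a longer body has more room for a peak. Among genes of 100 kb or more, 11 of 17 members had a peak, beside 61.6% of all such genes. Among shorter genes, 12 of 14 members had one, beside 36.8% of all shorter genes. This split did not match lengths. All of these 14 members except Adcy4 were longer than the median of 17.4 kb over all protein-coding genes. Of the 12, Adcy4, Pde4c and Pde6a had only peaks nearer to a TSS of another gene. Per 100 kb of gene body, the members had 0.665 assigned peaks and all protein-coding genes 1.26. These counts include peaks in the flank, while the length leaves the flank out, which raises the value most for short genes. Within gene bodies alone the members had 32 of the 44 peaks. The lower value of the members was therefore not read as sparser peaks. The plot of peaks per gene shows that 14 members had 1 peak, 9 had more and 8 had none, with Pde4d (6 peaks), Adcy8, Pde4a and Pde10a (4 each) at the top. Of the 44 peaks, 24 lay within 2 kb of a TSS of the member and 20 farther away. For 9 peaks the nearest TSS belonged to another gene, and these are named below.

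**Figure D1:**
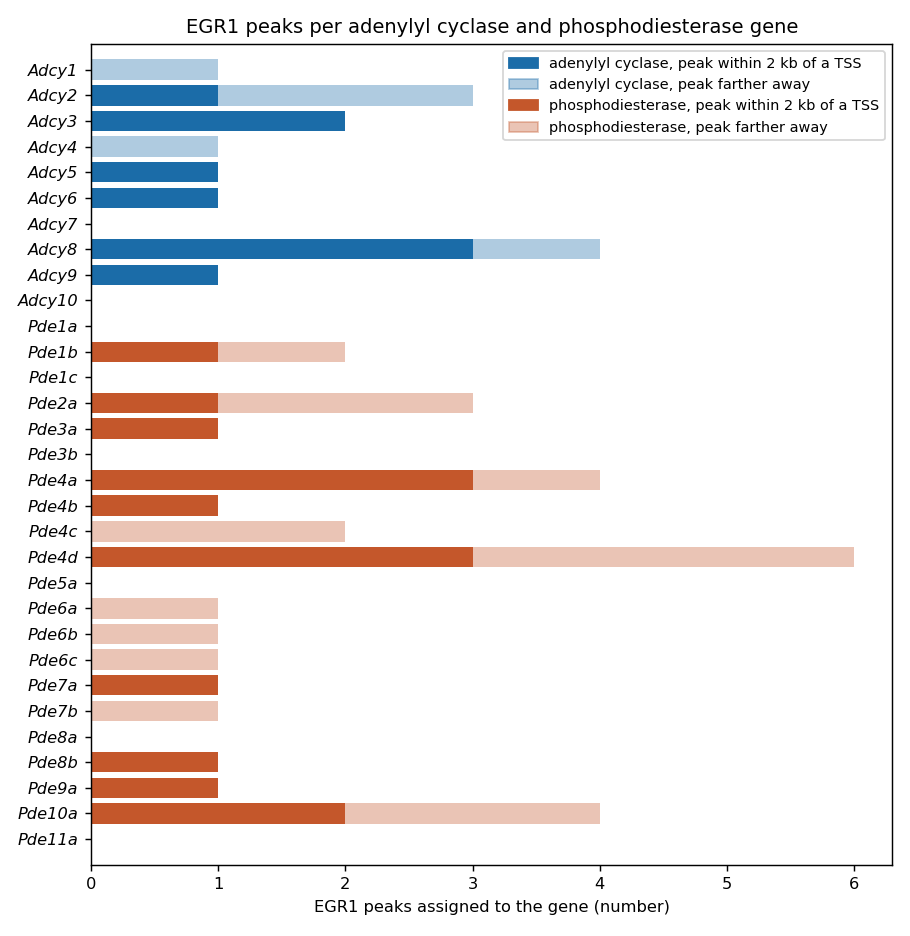
Number of EGR1 peaks assigned to each member, with adenylyl cyclases in blue and phosphodiesterases in orange, and peaks within 2 kb of a TSS of the gene in the full colour. Pde4d holds 6 peaks, Adcy8, Pde4a and Pde10a hold 4 each, and 8 genes have none.

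All 3 cyclases that calcium and calmodulin stimulate had a peak, and together they held 7. Adcy8 is the gene of the neuronal cyclase that responds to calcium entry, and 3 of its 4 peaks stood in a row at its start. The peak nearest to the TSS (chr15:64922242-64922496, 255 bp wide) was centred 73 bp upstream and had an IDR of 4.09e-07, the lowest of any cyclase peak. The next lay 693 bp downstream with an IDR of 7.22e-05, and the one after that 1543 bp downstream in exon 1, with an IDR of 0.00294. These 3 centres were 792 and 850 bp apart and are separate entries of the list. The remaining peak was intronic, 63589 bp from the TSS and nearer to a TSS of Gm21798 (40988 bp), with an IDR of 0.00661. Gm21798 is an annotated gene that overlaps Adcy8 and spans all 4 peaks, and the assay does not tell strands apart.

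Adcy3, whose product serves olfactory signalling and is found in neuronal cilia, had peaks at separate promoters. The peak nearest to a TSS (chr12:4194639-4194902, 264 bp) was centred 50 bp from the start of an internal, noncoding transcript, with an IDR of 0.00191. The other lay 63 bp upstream of the main promoter and had the lower IDR, 1.78e-06. Adcy1, the other calcium-stimulated cyclase of neurons, had no peak at its promoter. Its only peak (chr11:7134421-7134670, 250 bp) lay in intron 5, 25336 bp from the nearest TSS, with an IDR of 0.00333. Thus Adcy8 and Adcy3 had peaks at their main start, and each also had a peak far inside the gene. The only peak of Adcy1 lay within the gene.

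Both cyclases that calcium inhibits, Adcy5 and Adcy6, had a single peak near the start. Adcy5 encodes the main cyclase of the striatum, and its peak (chr16:35155154-35155417, 264 bp) was centred 409 bp downstream of the TSS in the 5′ untranslated region, with an IDR of 0.000284. The peak of Adcy6 (chr15:98609434-98609688, 255 bp) lay 471 bp downstream of its start with an IDR of 0.0028. Adcy9, the cyclase that forskolin hardly activates, also had a single peak at its start (chr16:4420284-4420533, 250 bp, 89 bp from the TSS), with an IDR of 0.00317. Of these 3 genes, Adcy5 had the lowest IDR, just under the median of 0.000321 over all peaks of the list.

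The cyclases stimulated by G protein beta-gamma subunits were less alike. Adcy2 had 3 peaks, of which the nearest to its TSS (chr13:68998632-68998895, 264 bp) lay 777 bp into intron 1 with an IDR of 0.000944, but was only 29 bp from the TSS of Gm35161. The other Adcy2 peaks lay 109295 and 169333 bp into the gene and were also nearer to TSSs of other annotated genes. The peak counted for Adcy4 (chr14:55767982-55768231, 250 bp) lay behind the end of this short gene, 4982 bp from its nearest TSS, within the neighbouring receptor gene Ltb4r1, and had an IDR of 0.0123. Adcy7 had no peak, nor did Adcy10, the soluble cyclase that senses bicarbonate. Without the peaks that were nearer to another gene, 6 of the 10 cyclases kept a peak.

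The phosphodiesterases that hydrolyse both cyclic nucleotides divided evenly, with a peak at 4 of 8. Pde10a, best known from the medium spiny neurons of the striatum, held the peak with the lowest IDR of all members. This peak (chr17:8524907-8525118, 212 bp) was centred 359 bp upstream of the start of the gene, and its IDR of 2.82e-08 placed it within the lowest 1.61% of the list. A further peak lay 915 bp upstream of an internal promoter with an IDR of 0.0121, another 9106 bp upstream of the gene with an IDR of 9.81e-05, and the last in intron 2 with an IDR of 0.0111. The IDRs within this gene thus spanned several orders of magnitude.

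Pde1b, a calmodulin-activated enzyme of neurons, had a peak 35 bp upstream of its TSS (chr15:103502867-103503130, 264 bp) with an IDR of 0.00296, and one in intron 2 with an IDR of 4.08e-06. The intronic peak was therefore the one that ranked higher. Pde3a, of the cGMP-inhibited family, had its peak (chr6:141249743-141249992, 250 bp) 98 bp upstream of the start of a noncoding transcript, with an IDR of 0.00345. This peak lay within exon 1 of the coding transcript, 599 bp from its start, and within another annotated gene, Gm28523. All 3 peaks of Pde2a, the cGMP-stimulated enzyme of cortex, were intronic and also lay within Gm45837, another annotated gene. The one nearest to a TSS (chr7:101482973-101483236, 264 bp) lay 1820 bp downstream of the start of a noncoding transcript and had an IDR of 5.51e-05. Another had the lowest IDR of the 3 (1.16e-05) and lay 1340 bp from the start of Mir139, a microRNA encoded inside Pde2a. The third lay 5015 bp downstream of the main start, with an IDR of 0.000101. Pde1a, Pde1c, Pde3b and Pde11a had no peak.

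Of the 8 phosphodiesterases specific for cAMP, 7 had a peak and 5 had one within 2 kb of a TSS. The PDE4 family, the target of rolipram and the main cAMP-hydrolysing family of the brain, held 13 of the 16 peaks in this class. At Pde4a, 3 of 4 peaks lay near the start of the gene. These were 4353 bp upstream (chr9:21161256-21161465, IDR 1.18e-07), 166 bp upstream (IDR 4.48e-05) and 625 bp downstream (IDR 2.42e-07) of the first TSS. The peak nearest to a TSS (chr9:21196555-21196818, 264 bp) was instead 18 bp upstream of an internal promoter, and its IDR of 0.00537 was the highest of the gene. Pde4b had a single peak in a gene of 519.7 kb, and it sat on the first TSS (chr4:102087421-102087684, 264 bp, 10 bp downstream, IDR 4.55e-07).

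Pde4d is the longest member, at 1503.5 kb, and had the most peaks. The peak nearest to a TSS (chr13:109926713-109926976, 264 bp) was centred 1 bp from a start near the 3′ end of the gene, with an IDR of 0.00105. A pair 724 bp apart lay 290 and 1014 bp downstream of an internal promoter, with IDRs of 0.00395 and 0.0199, the latter at the edge of the list. The other 3 were intronic and 24358 to 68859 bp from any TSS, and among them was the peak with the motif shown above, whose IDR of 4.4e-07 was the lowest of the gene. The peaks of Pde4d were thus spread over most of the gene, while most of those of Pde4a gathered at its start. Pde4c had no peak whose nearest TSS was its own, since both peaks counted for it lay behind its last exon and nearer to TSSs of Rab3a, at 1342 bp (chr8:70753212-70753461, 250 bp, IDR 2.37e-07) and at 37 bp (IDR 0.00119).

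The other cAMP-specific enzymes had at most 1 peak. Pde7a had a peak 1012 bp upstream of its first TSS (chr3:19312209-19312458, 250 bp, IDR 0.00659). Pde8b had one 100 bp upstream of its second promoter (chr13:95222788-95223037, 250 bp, IDR 0.00626). The peak of Pde7b (chr10:20690093-20690356, 264 bp) lay in intron 1, 34471 bp from the TSS, with an IDR of 0.000687, and Pde8a had none. Outside the PDE4 family no peak of this class was among the 25% of the list with the lowest IDRs.

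Of the 5 phosphodiesterases specific for cGMP, 4 had a peak, but only Pde9a had one within 2 kb of a TSS. Pde9a, a brain enzyme with a high affinity for cGMP, had its peak (chr17:31386262-31386420, 159 bp) 47 bp downstream of the start of the gene with an IDR of 0.00035. The catalytic subunits of the photoreceptor enzyme had 1 peak each, all far from their own TSSs. The peak of Pde6b (chr5:108407095-108407344, 250 bp) was 18794 bp inside the gene with an IDR of 0.0049, and that of Pde6c (chr19:38158018-38158281, 264 bp) 25204 bp inside with an IDR of 0.00229. The peak counted for Pde6a (chr18:61211677-61211926, 250 bp, IDR 0.0152) lay 8513 bp upstream of the gene and only 190 bp from a TSS of Slc26a2, a sulfate transporter. Pde5a, the target of sildenafil, had none.

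The 8 members without a peak were Adcy7, Adcy10, Pde1a, Pde1c, Pde3b, Pde5a, Pde8a and Pde11a. For these the nearest peak of the list lay 24.6 kb (Adcy10) to 237 kb (Pde1c) from any of their TSSs, so none was close to the limit of 10 kb. The distances were 32.9 kb for Adcy7, 38.7 kb for Pde8a, 40.9 kb for Pde3b, 68.5 kb for Pde11a, 129 kb for Pde5a and 186 kb for Pde1a. On the inside of the limit, the farthest peak outside a gene body was the one 9106 bp upstream of Pde10a, followed by the one 8513 bp upstream of Pde6a. The PDE1, PDE3 and PDE8 families each had at least 1 gene with a peak and at least 1 without.

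Many members have several annotated promoters, some of which give enzymes with different N-termini while others start only noncoding transcripts. TSSs up to 500 bp apart were therefore joined into clusters and numbered along the direction of transcription. The members had 139 clusters, and 20 of them (14.4%) had a peak within 1 kb, close to the 13.9% of clusters over all protein-coding genes. Only 85 of the 139 start a coding transcript. Of these 85, 18 (21.2%) had a peak, beside 19.6% of such clusters over all protein-coding genes. Of the 28 members with 2 or more clusters, 12 had a peak at 1 or more of them. In 6 of these the peaks marked exactly 1 cluster and in the other 6 they marked several. The first cluster had a peak in 10 of the 28 genes (35.7%), while 8 of 108 later clusters (7.41%) had one. Over all genes with 2 or more clusters these shares were 29.6% and 6.04%, so the first cluster had the higher share in both.

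The promoter maps show how the peaks divided among the promoters of each gene. At Pde4a, peaks marked cluster 1, which starts the isoform of 844 amino acids, and cluster 4, which starts that of 610, but not clusters 2 and 3 between them. At Pde4b only cluster 1 of 8 was marked, the start of the isoform of 736 amino acids, and no later cluster had a peak nearer than 167189 bp. Pde4d showed the reverse, with no peak near its first 3 clusters. There, cluster 4, which starts the longest isoform (803 amino acids), and cluster 14, which starts one of 517, were the marked ones among 15. PDE4 isoforms are known to differ in their N-terminal regulatory regions, which the short forms hold only in part. At these 3 genes the promoter of the isoform with the longest annotated protein had a peak within 1 kb, although at Pde4d it lay 290 bp away and would not count within 250 bp. At Pde4c, the other gene of the family, the cluster of the longest isoform (686 amino acids) was 23015 bp from the nearest peak.

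At Pde10a, peaks marked cluster 1 (716 amino acids) and cluster 4 (796 amino acids) of 10, but not cluster 2, which starts the isoform of 850 amino acids and lay 1788 bp from the nearest peak. Pde8b had its peak at cluster 2 of 6, the start of 5 coding transcripts with up to 865 amino acids, and none at cluster 1. Pde4d and Pde8b were the only members with a peak at a later cluster but not at the first. Adcy3 was marked at clusters 1 and 4 of 5, of which cluster 4 starts no coding transcript. Adcy9 and Pde3a were marked at both of their clusters by a single peak each. Adcy5, Adcy6, Pde1b and Pde9a were marked at the first cluster alone, of 2, 5, 3 and 10 clusters. At Adcy6 this cluster starts only transcripts with 43 to 194 annotated amino acids, while the isoforms of 1168 and 1166 start at clusters 2 and 3, which lay 1928 and 4735 bp from the peak. Adcy2 and Adcy8 have 1 cluster, and it had a peak in both. None of the 8 clusters of Pde2a had a peak within 1 kb.

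**Figure D2:**
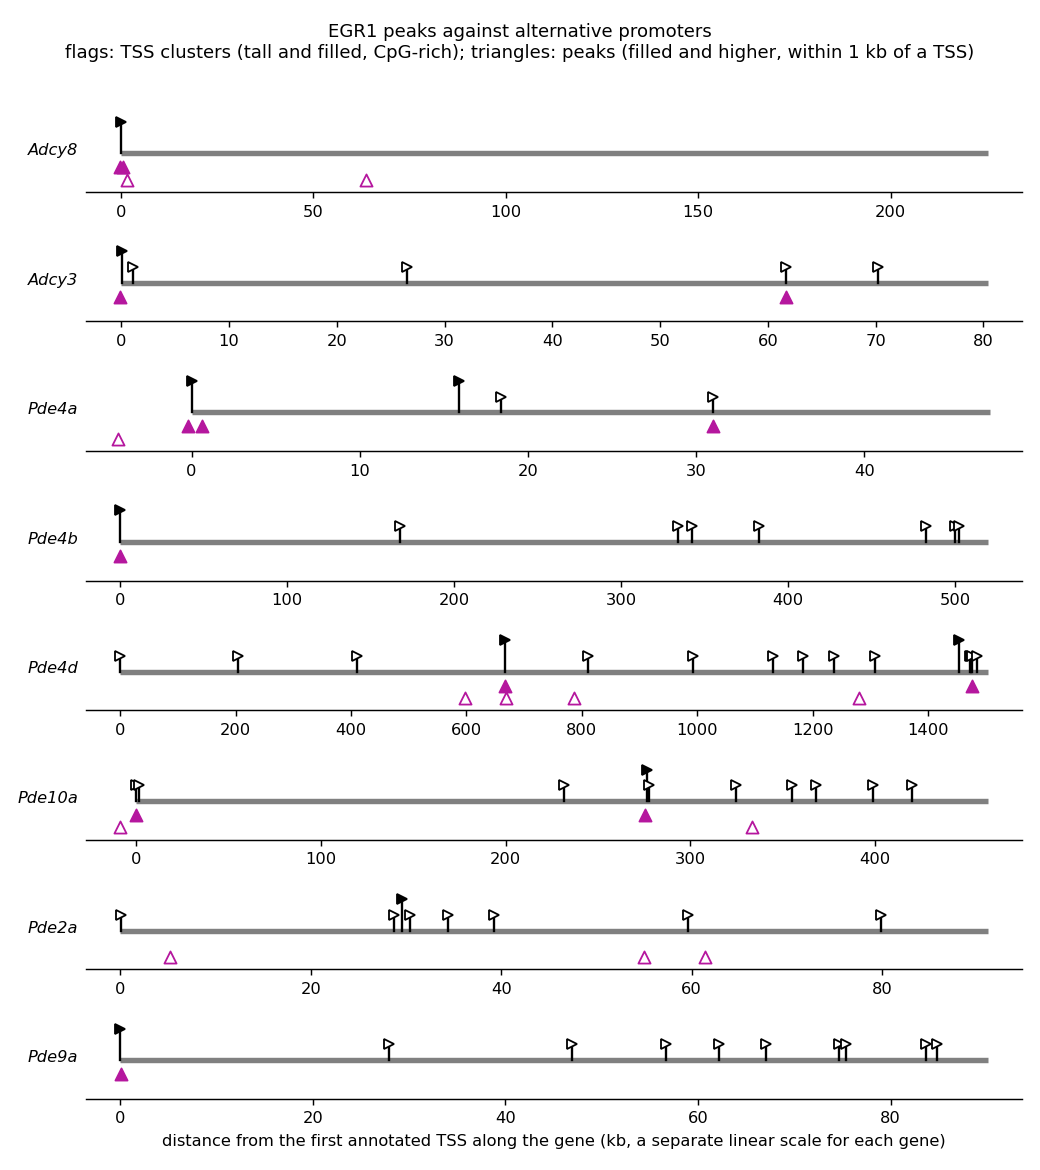
EGR1 peaks (triangles) and TSS clusters (flags) along 8 members, each drawn from its first annotated TSS on its own linear scale in kb, with CpG-rich clusters as tall filled flags and peaks within 1 kb of a TSS as filled triangles. Pde4b has a peak at cluster 1 of 8 only, Pde4d at clusters 4 and 14 of 15, and Pde2a at none of 8.

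Most of the clusters with a peak were rich in CpG. A cluster was called CpG-rich where the 500 bp around it had a GC content of 50% or more and an observed/expected CpG ratio of 0.6 or more. Of 27 CpG-rich clusters of the members, 15 (55.6%) had a peak within 1 kb, compared with 43.3% of the CpG-rich clusters of all protein-coding genes. Of the 112 other clusters, 5 (4.46%) had one, beside 3.98% over all genes. These 5 were cluster 1 of Pde10a, cluster 1 of Pde3a, cluster 4 of Pde4a, cluster 14 of Pde4d and cluster 4 of Adcy3. Of these, cluster 1 of Pde10a, the place of the lowest IDR, missed the CpG limit narrowly with a ratio of 0.58. The CpG-rich clusters thus held most of the promoter peaks, as they did over the genome.

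The 12 CpG-rich clusters without a peak belonged to Adcy1, Adcy7, Pde2a, Pde3b, Pde4a, Pde4c, Pde4d, Pde5a, Pde7a and Pde8a. Among the 12 were clusters with higher CpG ratios than any cluster that had a peak. These included cluster 1 of Pde3b (1.13), of Pde8a (1.12), of Adcy1 (1.04) and of Pde7a (1.02). Cluster 1 of Pde7a missed the limit of 1 kb narrowly, with a peak at 1012 bp. The highest ratio at a cluster with a peak was 0.99, at Adcy5. Cluster 1 of Adcy1 and cluster 3 of Pde2a also held the EGR1 motif, and yet the nearest peaks were 71057 and 24455 bp away. The median ratio was 0.86 in the CpG-rich clusters without a peak and 0.78 in those with one. Over all protein-coding genes these medians were 0.82 and 0.84.

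**Figure D3:**
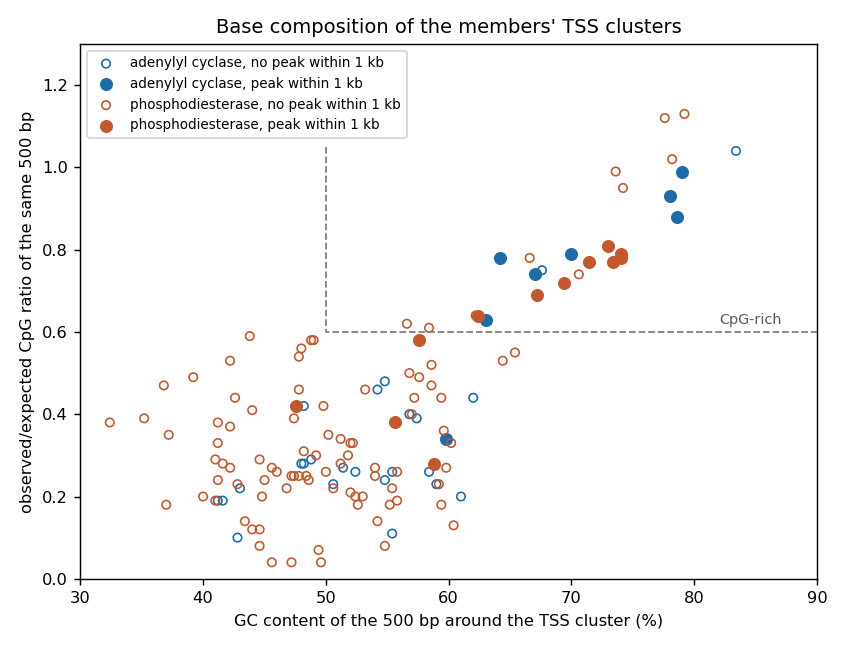
GC content (%) and observed/expected CpG ratio of the 500 bp around each of the 139 TSS clusters of the members, filled where an EGR1 peak lay within 1 kb, with dashed lines at the limits for CpG-rich. Of the clusters inside the limits 15 of 27 are filled, and outside them 5 of 112.

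The peaks of the members ranked lower in reproducibility than those of the list as a whole. Their median IDR was 0.00112 against 0.000321, and 21 of 44 (47.7%) had an IDR of 0.001 or less, compared with 59.6% of all peaks. Of the 44, 8 were among the 25% of the list with the lowest IDRs and 13 among the 25% with the highest. The 8 were those at Pde10a, Adcy3, Adcy8, Pde4b, Pde4c, Pde4d and, with 2, Pde4a. By class, the median IDR was 9.94e-05 for the dual phosphodiesterases, 0.000868 for the cAMP-specific ones and 0.0036 for the cGMP-specific ones. All members' peaks were of similar width, 146 to 264 bp with a median of 250 bp, as in the list.

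**Figure D4:**
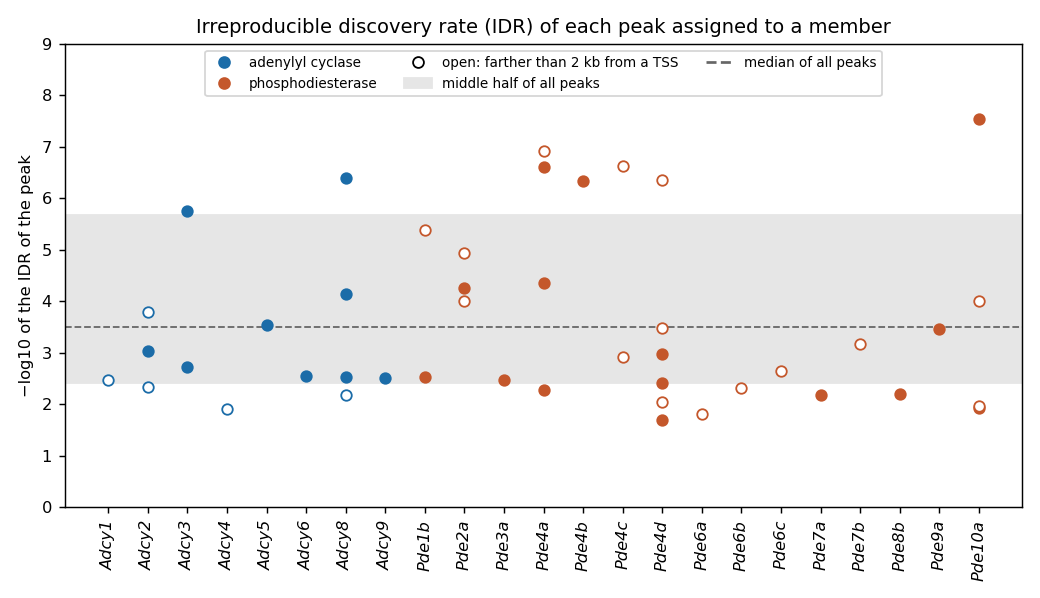
The −log10 of the IDR of each peak, by gene, with open circles for peaks farther than 2 kb from a TSS, a grey band for the middle 50% of all peaks in the list and a dashed line for their median. Pde10a has the highest point (IDR 2.82e-08), and 8 peaks lie above the band.

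The exact EGR1 motif was in 6 of the 44 peaks (13.6%), compared with 16.6% of all peaks on assembled chromosomes. Within 2 kb of a TSS 5 of 24 peaks held it (20.8%, beside 22.2% of all peaks near a TSS), and farther away 1 of 20 (5.0%, beside 6.87%). Among the members the motif was found in 4 of 14 peaks at cyclases and in 2 of 30 at phosphodiesterases, Pde4b and Pde4d. Of the 4 cyclase peaks, 2 were at Adcy8. With 1 mismatch allowed it was in 35 of 44 peaks (79.5%), beside 69.8% of all peaks, so the looser form was common throughout the list. In that form it was in 12 of 14 cyclase peaks (85.7%) and in 23 of 30 phosphodiesterase peaks (76.7%). Around the TSS clusters, the exact motif occurred at 10 of 139 clusters of the members (7.19%) and at 3.63% of clusters over all genes. The cAMP response element TGACGTCA, through which CREB acts, was in 0 of 44 peaks, which allows a share of up to 6.82%, and 1.3% of all peaks held it. The median CpG ratio of the peaks was 0.63 (95% interval of the median over peaks 0.38 to 0.75), near the 0.6 of all peaks. Their median GC content was 59.5% beside 60.4%. The interval treats the peaks as independent, although some lay side by side at the same gene. It is not a spread between experiments.

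Set side by side, a peak was found at 8 of 10 genes of synthesis (80.0%) and at 15 of 21 genes of breakdown (71.4%). This order was not stable: without the peaks nearer to another gene the counts were 6 of 10 and 13 of 21, and with only peaks at an IDR of 0.001 or less they were 4 of 10 and 9 of 21, so that the share was slightly higher for breakdown in both. Within 2 kb of a TSS the counts were 6 of 10 (60.0%) and 10 of 21 (47.6%). Per 100 kb of gene body the cyclases had 1.1 assigned peaks and the phosphodiesterases 0.561, with flank peaks counted but flank length left out. All 5 cyclases of 100 kb or more had a peak, although every peak of Adcy2 was nearer to a TSS of another gene. Of the phosphodiesterases of that length 6 of 12 had one, beside 61.6% of all genes of that length. Among CpG-rich clusters, 7 of 9 had a peak in the cyclases and 8 of 18 (44.4%) in the phosphodiesterases. Over all genes the share was 43.3%, so the phosphodiesterases were near the share of all genes. Among the 7 were both clusters of Adcy9, marked by the same peak. Also among them was the cluster of Adcy2, whose peak was nearer to the TSS of Gm35161. The phosphodiesterase peaks had the lower median IDR (0.000868 against 0.00236), with 15 of 30 at or under 0.001 compared with 6 of 14. These are counts over genes in 1 merged list, and the differences were not tested.

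Peaks were also counted at 58 other genes of the pathway, listed by role. Of these, 35 (60.3%) had a peak, beside 39.6% of all protein-coding genes. Within 2 kb of a TSS 27 (46.6%) had one, beside 29.6% of all protein-coding genes. For this list neither gene length nor the number of TSSs was taken into account. Peaks nearer to a TSS of another gene were not set apart. Of the 7 G protein alpha subunits of the Gs and Gi families that stimulate or inhibit cyclases, 6 had a peak at a TSS, Gnaz being the exception. The 3 subunits of soluble guanylyl cyclase, which makes cGMP, all had one. Of the regulatory subunits of protein kinase A 3 of 4 had a peak at a TSS, and of the CREB-related factors and coactivators 5 of 7. The cAMP-activated exchange factors Rapgef3 and Rapgef4 had 0 of 2, and the cyclic nucleotide-gated channels 2 of 10. Lower counts at a TSS were found for the membrane guanylyl cyclases (1 of 6), the cGMP-dependent kinases (0 of 2) and the noncatalytic photoreceptor phosphodiesterase subunits (0 of 3). Kinase A anchoring proteins had 3 of 8, kinase A inhibitors 2 of 3, kinase A catalytic subunits 1 of 2, and Ppp1r1b, a phosphatase inhibitor, also had a peak at a TSS.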

How the data were processed

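EGR1 ChIP-seq was performed in frontal cortices of male mice. Reads were trimmed by the authors and aligned to mm10 (Bowtie in the methods, Bowtie2 2.2.9 and bedtools 2.26.0 in the submitters' processing notes). Peaks were called with SPP in each replicate, and reproducible peaks, with an IDR of at most 2%, were merged. The deposited values are peak positions and the IDR of each peak, read like a q-value. Depth is unknown. The input DNA had no processed file to analyse here.

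Positions were read as in BED files, which the sources do not state, and compared with GRCm38.p6 and GENCODE M21. Peak centres were assigned to genes (body or 10 kb from a TSS). TSSs up to 500 bp apart formed a cluster. The 76 peaks on scaffolds entered the total, not the sequence results. Python 3.11.15, numpy 2.4.6, pandas 2.3.3 and samtools 1.23.1 were used. Tested on simulated data, 200 of 200 assignments and 200 of 200 motif states were recovered.

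The members and lists were chosen with earlier results of these data known. Every member is accounted for: the peak nearest to a TSS is given where within 2 kb, otherwise the one with the lowest IDR. Other peaks of a member are given beside these, by position along the gene. The 6 motif-holding peaks and the 3 lowest-IDR peaks without it are printed. With 1 merged list, no test was run. Shares and limits cover counting error only. Alternatives were the IDR limit, flank, promoter distance, transcript set, overlap rule, counting of positions and motif form.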

Additional observations from a re-analysis of the deposited data

How the results depend on the processing

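Of 84 values recomputed under alternatives, 66 stayed within 1.5 times the reported count, or within the interval of the median, and 18 moved. Stricter IDR limits, which by construction leave fewer peaks, account for most. With only peaks at an IDR of 0.001 or less, 13 members had a peak (4 cyclases, 9 phosphodiesterases), 9 had one within 2 kb of a TSS (5 of them phosphodiesterases), 21 peaks were assigned and 8 TSS clusters were marked. When peaks in the upper 50% of IDRs were dropped, these counts were 11 members (4 and 7), 7 within 2 kb (3 cyclases and 4 phosphodiesterases), 17 peaks and 6 clusters. With 250 bp in place of 1 kb, 12 clusters were marked. The motif was found in 35 member peaks with 1 mismatch allowed and in 2 as GCGTGGGCG alone.

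No paired analysis was possible because the deposited file is 1 peak list merged over both replicates, and for the same reason no replicate could be left out. Peaks nearer to another gene leave 19 members with a peak when removed. The read depth behind a peak was not known, so a missing peak sets no upper limit on binding.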

Other observations

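Within the wider pathway, the peak at Prkaca, the main catalytic subunit of protein kinase A, had a lower IDR than any peak of a member (1.56e-08, 38 bp from a TSS), while Prkacb, the other catalytic subunit listed, had none. Of 8 kinase A anchoring proteins, 4 had a peak and 3 had one near a TSS. Akap11 had a peak 84 bp from a TSS (IDR 7.04e-08) and Akap5, which holds the kinase at the postsynaptic density, one at 72 bp (IDR 1.79e-06). Akap13 had a peak at 22 bp (IDR 0.00295) and Akap12 one at 12368 bp, and Akap1, Akap6, Akap7 and Akap9 had none. Hcn2, a hyperpolarization-activated channel that cAMP opens, had a peak at 91 bp with an IDR of 7.39e-08. Creb1 had a peak 63 bp from a TSS with an IDR of 3.18e-07, and Crem and Atf1 had none. Ppp1r1b, the phosphatase inhibitor DARPP-32 of striatal neurons, had 4 peaks, of which 1 was near a TSS.

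Prkg1, a cGMP-dependent kinase, had 1 peak, which lay 301341 bp from any of its TSSs and had an IDR of 3.87e-08. Of the 6 membrane guanylyl cyclases, Npr1 had a peak near a TSS (185 bp, IDR 1.15e-05), Gucy2g had one 9977 bp away and 4 had none. The genes in these sentences were picked from the list after their values were seen.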
